A study of Homo sapiens with 4 samples.

Results

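The messages of the mRNA decay machinery were described in MDA-MB-231 cells, a highly metastatic line of human triple-negative breast cancer. Members were the protein-coding transcripts of genes named as subunits of the CCR4-NOT complex (CNOT), the RNA exosome (EXOSC), the LSM proteins, the UPF and SMG factors, the exonucleases XRN1 and XRN2, the decapping factors (DCP, EDC3, EDC4, PATL1, DDX6), the deadenylases PAN2, PAN3 and PARN, the Argonautes (AGO1 to AGO4), the TNRC6 proteins, DICER1 and DROSHA. The rule itself used names and transcript types only, but it was set with earlier results of these data known. A member also needed a coding transcript among those listed, which start at 7.34 reads. The rule found 159 transcripts of 64 genes, of 26348 protein-coding transcripts of 12120 genes and 43596 transcripts of all types. The cells had been kept for 24 h in DMSO, the solvent control, or in 10 µM KH-3, a compound that inhibits the RNA-binding protein HuR, with 2 biological replicates in each of the 2 groups and thus 4 libraries of polyadenylated RNA. The value used for each transcript is the authors' mean of the normalized reads over libraries, a single value not split by group, with no SD and no n. Which libraries enter it is not stated. No difference between DMSO and KH-3 is therefore given, and every value is a description of this mean, without a test.

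Messenger RNA is usually destroyed from its ends. Deadenylases shorten the poly(A) tail, the decapping enzyme removes the 5′ cap and exonucleases then digest the body of the message, from the 5′ end by XRN1 or from the 3′ end by the exosome. Nonsense-mediated decay (NMD) feeds messages with an early stop codon into these steps, and microRNAs bound by Argonaute proteins recruit them through TNRC6 proteins, while HuR binds AU-rich sequences in many messages and is known for protecting them from decay.

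A gene's level was the sum, over its protein-coding transcripts, of the mean normalized reads divided by transcript length in kb. Across all 12120 genes with a protein-coding transcript the median level was 117 reads per kb, with quartiles of 36.6 and 306. VIM, the intermediate filament of mesenchymal cells, stood at 3786 reads per kb and KRT18, an epithelial keratin, at 3542, both with about 99.0% of genes below them. PECAM1 of endothelial cells was at 4.08 reads per kb, and PTPRC of blood cells was not among the listed genes.

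EXOSC9 and LSM6 had most of their reads, and LSM4 and SMG9 a smaller share, on transcripts that the annotation itself marks as NMD targets. The NMD transcripts of AGO3 (31.4%) and DCP1B (16.7%) held larger shares of reads than those of SMG9 (15.3%) and LSM4 (10.4%). These transcripts are not members but belong to the same genes. The shares are of reads, which favour long transcripts. Per kb, the EXOSC9 NMD transcript was at 71.7 reads, below the 76.3 of the EXOSC9 coding transcripts together. The ends of the coding sequences of EXOSC9, LSM6, LSM4 and SMG9 are shown, and those of AGO3 and DCP1B are not. They are shown because the mark turns on where the stop codon lies relative to the exon junctions. In each line the last codons are in lower case and the stop codon is in capitals, read 5′ to 3′ from the hg38 transcripts of GENCODE v44. EXOSC9 and LSM6 lie on the plus strand of chromosome 4, and LSM4 and SMG9 on the minus strand of chromosome 19. The stop codon of the EXOSC9 NMD transcript is at chr4:121811597-121811599 and that of the leading coding transcript at chr4:121816854-121816856. The LSM6 stop codon is at chr4:146189654-146189656 in the leading coding transcript and in both NMD transcripts. For LSM4 they are at chr19:18310149-18310151 and chr19:18307464-18307466, and for SMG9 at chr19:43740059-43740061 and chr19:43732854-43732856, the NMD transcript first in each case.
EXOSC9 NMD transcript ENST00000513654: atccagtccagtggttctgagatgcagTAA
EXOSC9 leading coding transcript ENST00000379663: agaagaaaaaagaagagagctgccaatTAA
LSM6 NMD transcripts and leading coding transcript: tacatcagtacacagaagagacggatgTGA
LSM4 NMD transcript ENST00000600289: ctggagggagccccagtcagccactccTGA
LSM4 leading coding transcript ENST00000252816: aagcctggcagacaggcgggcaaacagTGA
SMG9 NMD transcript ENST00000597598: tttgccccaccctgccacatcctgcatTGA
SMG9 leading coding transcript ENST00000601170: cacacgatcctcaccgagaagaactggTAA

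The decay genes lay mostly in the upper part of the table. Their median level was 205 reads per kb, and 43 of 64 (67.2%) were above the median of all genes. Of the 64, 23 were above the upper quartile and 4 below the lower quartile of all genes. The range was 83.2-fold, from 22.2 reads per kb for EXOSC2, a cap subunit of the exosome, to 1848 for CNOT1, the scaffold of the CCR4-NOT complex. The top place depends on how transcripts are summed: with coding reads over the length of the transcript with the most reads, LSM4 was at 1495, XRN2 at 1175 and CNOT1 at 883, and with that transcript alone at 1401, 1175 and 463. The bottom place depends on it too. EXOSC2 had coding transcripts of only 7.35 and 19.0 reads, and none was left at 50 reads or more. With all transcript types EXOSC2 was at 112 and TNRC6C was the lowest at 26.3. With coding reads over the leading length AGO3 was at 11.8, below EXOSC2 at 14.0. The exosome genes had a class median of 345 reads per kb (n = 10 genes), the decapping genes 265 (n = 22), the deadenylation genes 217 (n = 13), the NMD genes 189 (n = 10) and the silencing genes 49.5 (n = 9). The decapping class also counts LSM1 to LSM8, LSM10 to LSM12, XRN1 and XRN2. Its 9 genes of the decapping enzyme and activators, LSM14A and LSM14B included, had a median of 235 reads per kb. Silencing was the class with a median under that of all genes, and this held under each way of computing levels that was tried. All of these ways divide reads by transcript length. In coding reads not divided by length, the 9 silencing genes together had 7932 and the 10 exosome genes 5216. All 159 transcripts together held 0.520% of the normalized reads of the table, from 7.35 to 4038.5 reads each, with a median of 139 beside 91.3 for all protein-coding transcripts.

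**Figure D1:**
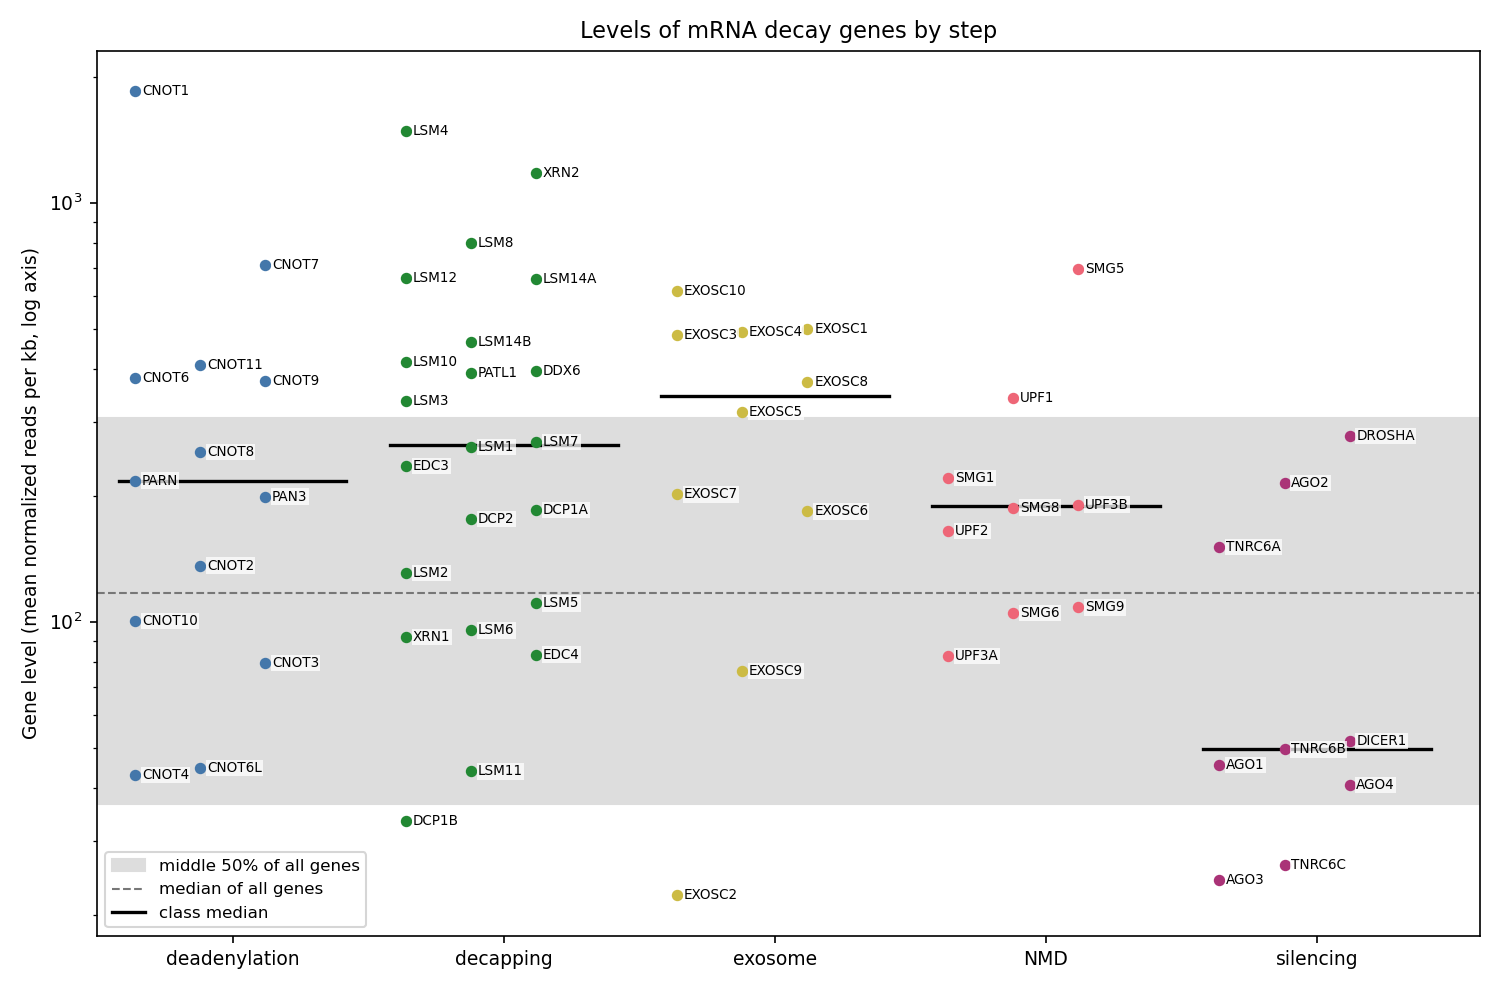
Level of the decay genes (y axis, mean normalized reads per kb, log scale) by class (x axis), with 1 point per gene, 1 NMD gene not drawn, and no error bars because the values are pooled means. Black bars are class medians over all members, the dashed line is the median of all 12120 genes and the grey band their middle 50%, and the silencing median of 49.5 lies below the dashed line while the other 4 class medians lie above it.

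Deadenylation was led by CNOT1, at chr16:58519951-58629885 on the minus strand, which carries the other subunits of the complex. Its 7 protein-coding transcripts held 7479 reads, more coding transcripts than any other member, where the median member had 2. The full-length transcript of 8471 bases had 3920 reads and one of 7660 bases had 2274. A fragment of 553 bases had 305 reads, and because of its length it alone made up 29.9% of the gene level. It was the CNOT1 transcript with the highest level per kb. No other gene of the class had a smaller share on its highest transcript. With all coding reads divided by the length of the transcript with the most reads, CNOT1 was at 883 reads per kb.

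The CCR4-NOT nucleases come in pairs. CNOT6, of the CCR4 type, stood at 382 reads per kb and its paralogue CNOT6L at 44.8, a ratio of 8.53. CNOT7, of the CAF1 type, stood at 710 and its paralogue CNOT8 at 254, a ratio of 2.79. The order of the second pair rests on short CNOT7 transcripts: one of 426 bases with 113 reads contributed 266 reads per kb, while the transcript with the most reads, of 6913 bases and 668 reads, contributed 96.6. With the leading transcript alone the CNOT7 to CNOT8 ratio was 0.802, and with all coding reads over its length 0.685. The other CCR4-NOT genes (CNOT2, CNOT3, CNOT4, CNOT9, CNOT10 and CNOT11) ran from 43.1 reads per kb for CNOT4, a ubiquitin ligase, to 411 for CNOT11.

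The other deadenylases stood in the middle of the class. PARN, a poly(A)-specific ribonuclease, had 1 coding transcript and a level of 217 reads per kb. PAN3, which recruits the nuclease PAN2, was at 199. PAN2 had no protein-coding transcript in the table and so is no member: its 2 listed transcripts, both with a retained intron, had 9.71 and 22.3 reads. Of adaptors and partners outside the rule, PABPC1, the main poly(A)-binding protein, was at 6574 reads per kb and PABPC4 at 193. PABPC1 had 4726 coding reads, fewer than the 7479 of CNOT1. Its level is given only as summed coding transcripts, a sum that short transcripts raise. The antiproliferative adaptors that bind CNOT7 and CNOT8 stood at 135 for TOB1, 193 for TOB2, 375 for BTG1 and 27.6 for BTG2.

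In decapping, the catalytic subunit was not the most abundant. DCP2, which cuts the cap, was at 176 reads per kb, and DCP1A, its activator, at 185, both from a leading transcript that held over 90% of the level. DCP1B, the paralogue of DCP1A, was the lowest gene of the class at 33.5, so that DCP1A was 5.52-fold higher. The helicase DDX6 was at 396 reads per kb, its partner PATL1 at 393, and the related P-body proteins LSM14A and LSM14B at 658 and 465. The LSM14A to LSM14B ratio of 1.41 fell to 0.721 with the leading transcripts alone. LSM14A spread its reads over 4 coding transcripts, the leading one of 3424 bases having 889 reads and 39.5% of the level, while 7 genes of the class had a single coding transcript.

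EDC4, the scaffold that joins DCP1 and DCP2, had less coding than non-coding signal. Its only listed coding transcript, of 4800 bases, had 400.3 reads and a level of 83.4 reads per kb. A transcript of 5267 bases with a retained intron had 577 reads, and transcripts of other types together held 73.8% of the reads of the gene. EDC3, another enhancer of decapping, stood at 235 reads per kb with 7.66% of its reads outside coding transcripts. EDC3 was thus 2.82-fold above EDC4 on coding transcripts, and the ratio was 0.603 when all types were summed. Among related genes not in the rule, PNRC2 was at 947 and the scavenger enzyme DCPS at 216.

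The LSM proteins form rings of 7 subunits that differ by 1 member: LSM1 with LSM2 to LSM7 makes the cytoplasmic ring of decapping, and LSM8 with the same partners the nuclear ring of U6 RNA. The shared subunits were uneven, with LSM4 at 1480.0 reads per kb, LSM3 at 337, LSM7 at 268, LSM2 at 131, LSM5 at 111 and LSM6 at 95.3, a range of 15.5-fold. With all transcript types summed LSM6 was at 622, behind LSM4 alone among the shared subunits, LSM2 was the lowest and the range was 12.5-fold. LSM4 was at chr19:18306236-18323112 and drew 1381 of its 1474 coding reads from 1 transcript of 986 bases. LSM8 stood at 804 reads per kb and LSM1 at 261, a ratio of 3.08. A coding transcript of 290 bases with 155 reads gave 66.7% of the LSM8 level, and with coding reads over the length of the leading transcript LSM8 was at 180.1 and LSM1 at 259, the reverse order. LSM1 also had a non-coding processed transcript of 776 bases with 290 reads beside 284 on its leading coding transcript. LSM10, LSM11 and LSM12, which are not in these rings, ran from 43.9 to 662 reads per kb.

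**Figure D2:**
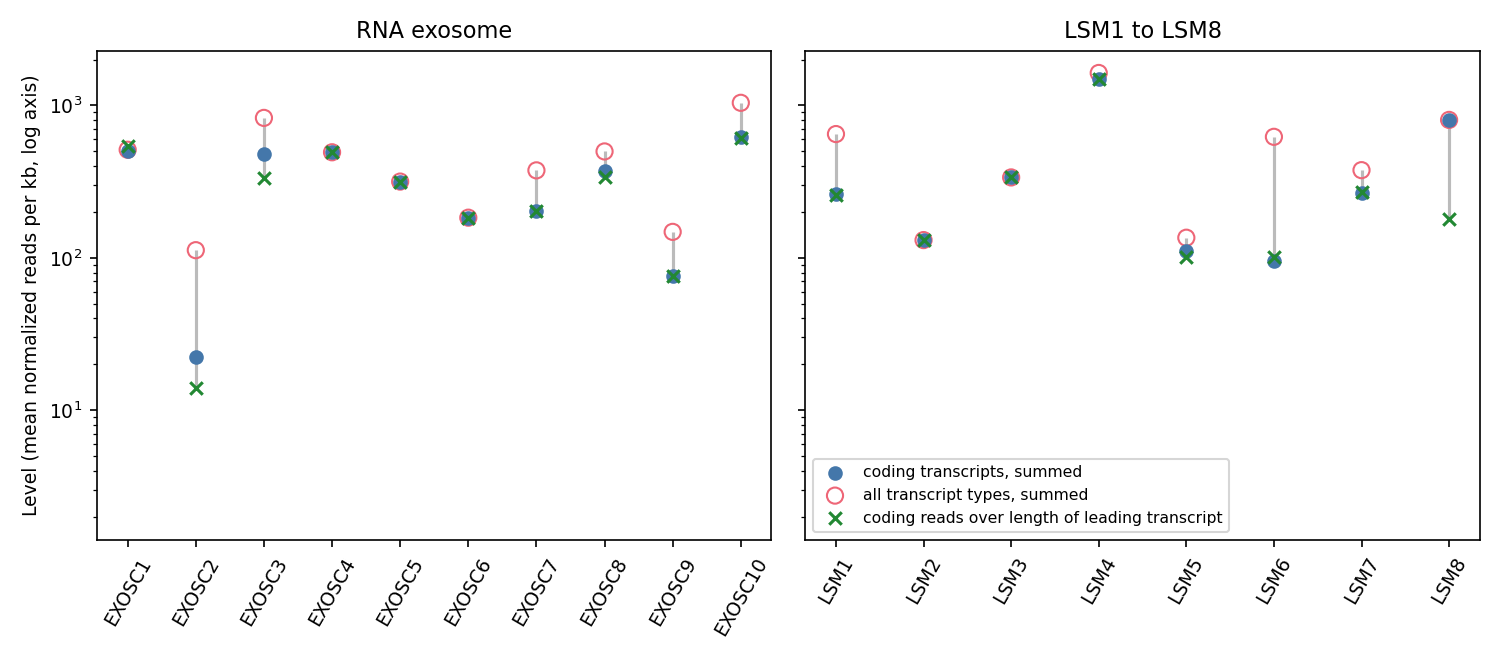
Levels of the exosome genes (left) and of LSM1 to LSM8 (right) on a log axis in mean normalized reads per kb, 1 column per gene. Filled circles are summed coding transcripts, open circles all transcript types and crosses coding reads over the length of the leading transcript, and the 3 marks lie far apart for EXOSC2 (22.2, 112 and 14.0), LSM6 and LSM8.

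The 5′ to 3′ exonucleases were the most unequal pair. XRN2, the mainly nuclear enzyme that also acts in transcription termination, was at 1175 reads per kb, from 1 transcript of 3437 bases with 4038.5 reads, the most of any member transcript. It lies at chr20:21303331-21389825 on the plus strand. XRN1, the cytoplasmic enzyme that digests decapped messages, was at 92.04 reads per kb from 4 coding transcripts with 701 reads in all. XRN2 was 12.8-fold above XRN1, and the order was the same under each alternative.

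The exosome core was high except for a pair of genes. The cap subunits EXOSC1 and EXOSC3 were at 499.6 and 482 reads per kb, and EXOSC2, the other cap subunit, at 22.2. Of the ring subunits, EXOSC4 was at 493, EXOSC8 at 373, EXOSC5 at 316, EXOSC7 at 201, EXOSC6 at 183 and EXOSC9 at 76.3. The range within the core was thus 22.5-fold on coding transcripts and 7.38-fold with all types summed, although the subunits assemble in equal numbers. EXOSC10, the nuclear catalytic subunit, was the highest of the class at 617 reads per kb. Of partners outside the rule, the catalytic subunit DIS3 was at 244, DIS3L at 99.3 and DIS3L2 at 25.6, the Ski complex genes SKIV2L, TTC37 and WDR61 at 86.2, 403 and 279, and the nuclear cofactors SKIV2L2, C1D and MPHOSPH6 at 179, 147 and 788.

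Exosome genes also had the highest class median for the share of reads outside transcripts typed as protein-coding, a share that includes NMD transcripts with an annotated coding sequence. The median share outside coding transcripts was 21.0% in this class, beside 1.12% for decapping, 1.32% for deadenylation, 2.56% for silencing, 7.81% for NMD genes and 1.20% for all genes. EXOSC2 had 7.35 and 19.0 reads on its coding transcripts and 107, 71.5 and 16.0 on processed transcripts, so that 88.1% were outside, the highest share of any member. EXOSC9 had 278 reads on its NMD transcript and 69.3, 38.2 and 7.99 on its coding ones, with 70.7% outside. EXOSC7 had 50.02% outside, EXOSC8 36.1%, EXOSC3 24.3% and EXOSC10 17.8%, while EXOSC4, EXOSC5 and EXOSC6 had none. EXOSC3 was the member of the class with the most divided level, 53.6% of it coming from a transcript of 768 bases with 198 reads.

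Over all members the median share outside coding transcripts was 2.43%, beside 1.20% for all genes. Transcripts of other types held over 20% of the reads of 14 of 64 members (21.9%), beside 23.2% of all genes, and over 50% of 7 members (10.9%), beside 9.46% of all genes. The share was 0 for 25 members (39.1%), beside 47.0% of all genes. Coding transcripts held 90.6% of the reads of the member genes and 88.2% of those of all genes. The 83 other transcripts of these genes were 45 with a retained intron, 20 processed transcripts and 18 annotated as NMD.

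**Figure D3:**
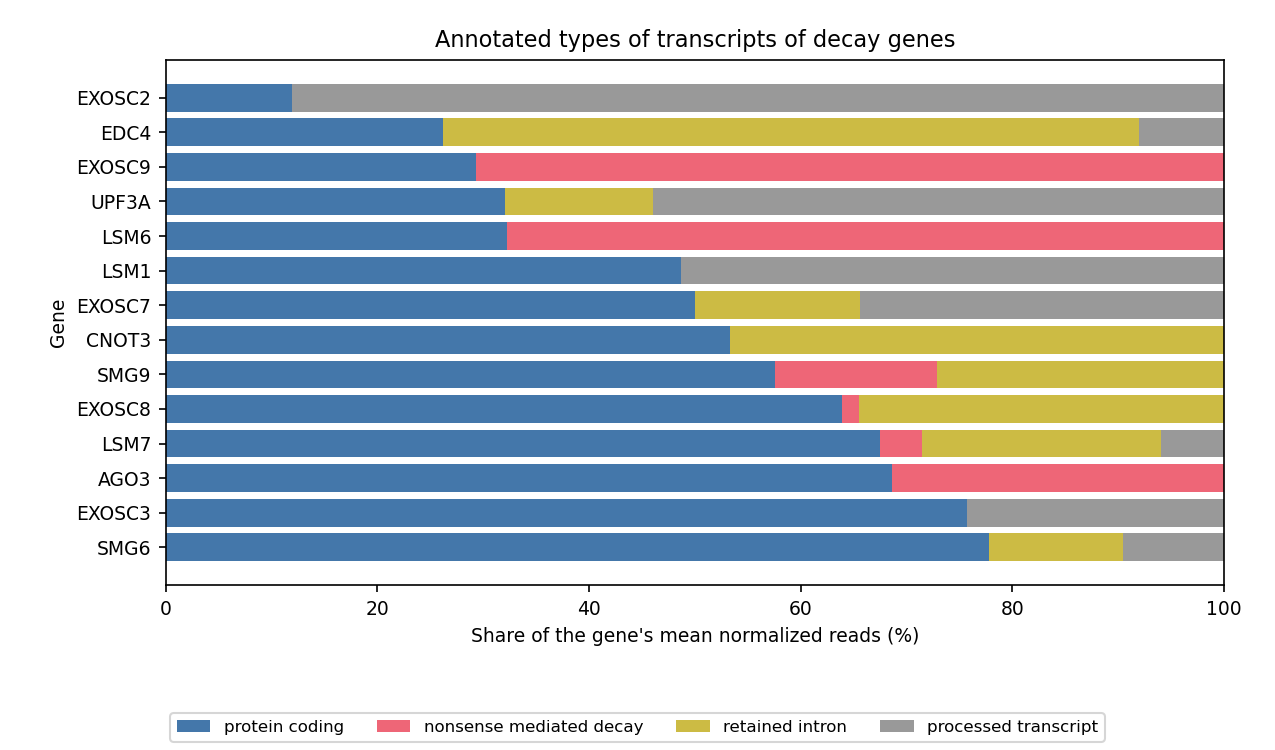
Share of each gene's mean normalized reads (x axis, %) by annotated transcript type, for the 14 decay genes with over 20% of reads outside coding transcripts, ordered by that share. The coding part is smallest for EXOSC2, EDC4, EXOSC9, UPF3A and LSM6, and the remainder is processed transcripts in EXOSC2, mostly retained introns in EDC4 and NMD transcripts in EXOSC9 and LSM6.

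The NMD factors kept to a narrower range of 8.40-fold. UPF1, the central helicase, was at 342 reads per kb, UPF2 at 165, UPF3B at 190.2 and UPF3A, the paralogue of UPF3B, at 82.7. UPF3B was 2.30-fold above UPF3A, whose coding transcripts had 102 and 89.5 reads beside 322 on a processed transcript of 1791 bases. With all types summed the UPF3A to UPF3B ratio was 1.23. UPF3A also had the most divided coding level of the class, 51.6% from its leading transcript of 2387 bases.

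The kinase SMG1, which phosphorylates UPF1, was at 220 reads per kb from 3218 coding reads, 3141 of them on a transcript of 16115 bases. Its regulators SMG8 and SMG9 were at 187 and 108. With all transcript types summed SMG8 stayed at 187 and SMG9 was at 475, the reverse order. Of the factors that bind phosphorylated UPF1, SMG5 was the highest gene of the class at 695 and the endonuclease SMG6 was at 105. SMG1 has near-identical copies, and 5 SMG1 pseudogenes with 12 listed transcripts held 473 reads, 12.6% of the reads of SMG1 and these copies together. How reads were divided between them is uncertain, so the SMG1 value is too. Of the exon junction and termination factors outside the rule, EIF4A3 was at 947, RBM8A at 1000.2, MAGOH at 786, CASC3 at 295, ETF1 at 1023 and GSPT1 at 1112, each above UPF1 except CASC3, and the NMD factors NBAS and DHX34 were at 161 and 170.

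The annotation gives the NMD mark from the distance between the stop codon and the last exon junction, commonly more than 50 bases, so that the mark fixes this distance and it is no finding. All 18 transcripts with the mark, from 17 member genes, had a stop codon more than 50 bases before the last junction. The distances ran from 59 bases in CNOT10 to 5038 in TNRC6A, with a median of 509. Among the leading coding transcripts of the members, 62 had an annotated stop codon and 0 of them lay more than 50 bases before the last junction. The NMD transcripts together held 2.19% of the reads of the member genes, beside 3.33% for all genes.

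The NMD transcripts of 6 genes held more than 10% of the reads of their gene. The share of all genes above that cut-off was not computed, so this count has no background beside it. In EXOSC9 the coding sequence was cut from 1368 to 726 bases and the stop lay 2801 bases before the last junction. In LSM4, with 10.4% of the reads, it was cut from 375 to 207 bases and the distance was 223. In SMG9, with 15.3%, the distance was 568, and the annotated coding sequence starts at the first base of the transcript, so its full length is not known. In AGO3, with 31.4%, it was cut from 2580 to 192 bases and the distance was 2469. Per kb, the AGO3 NMD transcript was at 29.5 reads, above the 24.2 of the AGO3 coding transcripts together. In DCP1B, with 16.7% from 14.5 reads, the distance was 1539. LSM6 was different, since both of its NMD transcripts kept the full coding sequence of 240 bases and the same stop as the coding transcript (the shared sequence shown above), with a junction 125 bases after it. They held 47.6% and 20.1% of the LSM6 reads, from 203 and 85.7 reads.

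**Figure D4:**
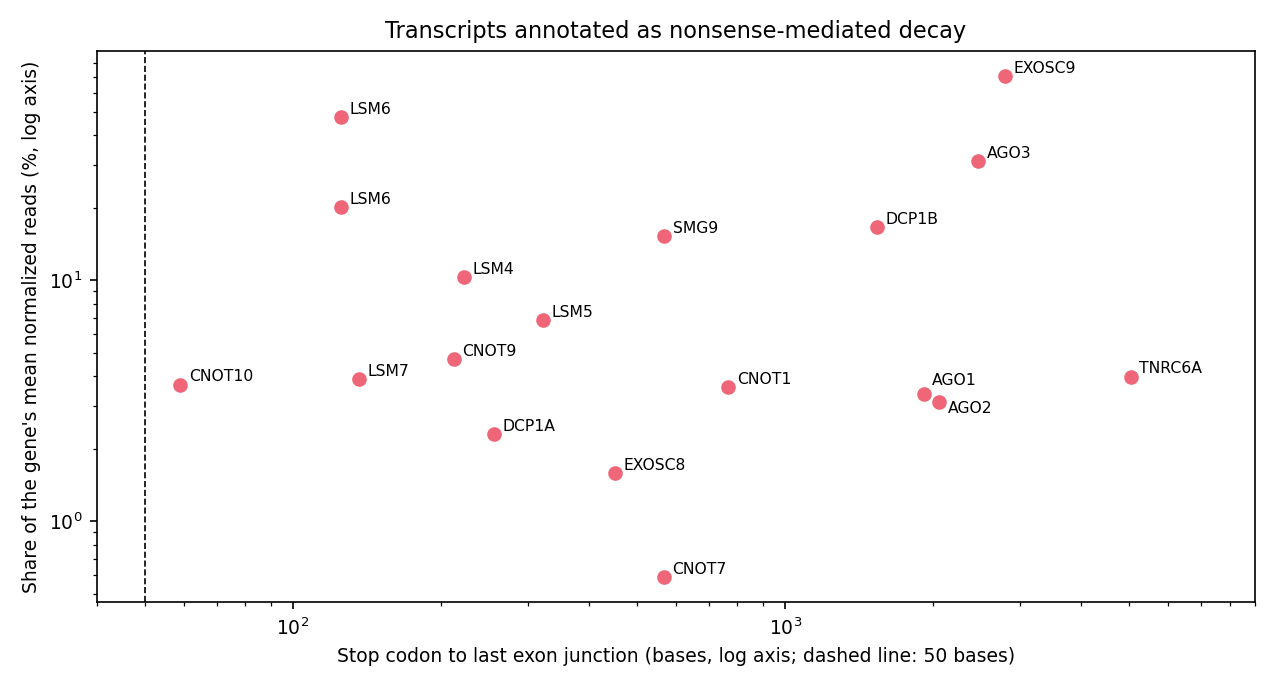
Each point is 1 of the 18 transcripts annotated as NMD, with the distance from its stop codon to the last exon junction (x axis, bases, log scale) against its share of the reads of its gene (y axis, %, log scale). All points lie to the right of the dashed line at 50 bases, as the annotation rule sets, and the shares run from 0.586% for CNOT7 to 70.7% for EXOSC9.

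The silencing genes had the lowest class median in reads per kb. AGO2, the Argonaute that can cut its target, was at 214 reads per kb, AGO1 at 45.4, AGO4 at 40.7 and AGO3 at 24.2, so that AGO2 was 4.71-fold above AGO1 and AGO4 1.68-fold above AGO3. These transcripts are long, with leading transcripts of 14581 bases for AGO2, 13708 for AGO1 and 19687 for AGO3, and in reads AGO2 had 3018, close to the 3170 of SMG5. Of the TNRC6 proteins, which link Argonautes to the deadenylases, TNRC6A was at 151 reads per kb, TNRC6B at 49.5 and TNRC6C at 26.3, and TNRC6A was 3.05-fold above TNRC6B. None of the 9 silencing genes was above the upper quartile of all genes, and AGO3 and TNRC6C were below the lower one.

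The ribonucleases that make microRNAs were unequal too. DROSHA, which cuts the primary transcript in the nucleus, was the highest gene of the class at 277 reads per kb, and DICER1, which cuts the precursor in the cytoplasm, was at 51.8, so that DROSHA was 5.35-fold higher. DICER1 had the most divided level of the class, with 217, 172 and 143 reads on transcripts of 10220, 10277 and 10331 bases, the first holding 41.0% of the level. Of partners outside the rule, the DROSHA partner DGCR8 was at 27.4 reads per kb, the export factor XPO5 at 282 and the DICER1 partner PRKRA at 121, while TARBP2 had no listed coding transcript.

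**Figure D5:**
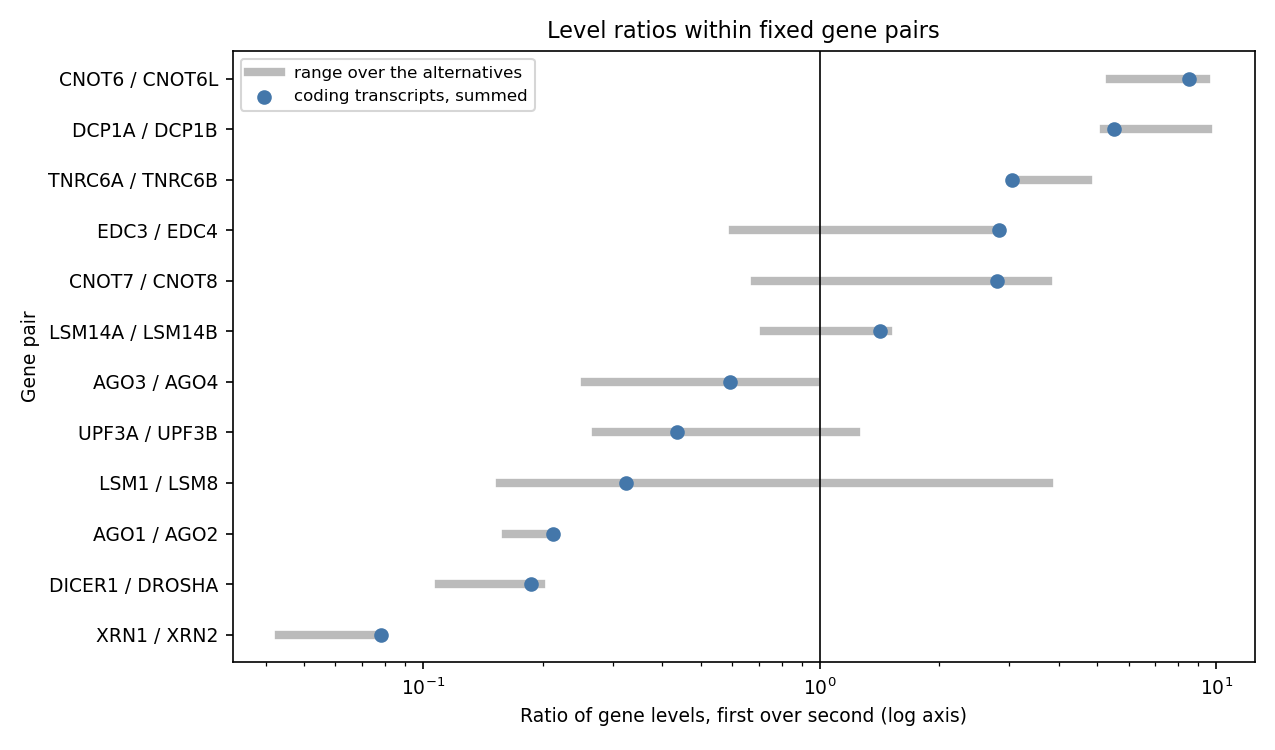
Ratio of gene levels within 12 gene pairs (x axis, first gene over second, log scale; vertical line at 1). Points are ratios from summed coding transcripts, from 0.0783 for XRN1 over XRN2 to 8.53 for CNOT6 over CNOT6L, and grey bars span the values under the alternatives, which cross 1 for EDC3 and EDC4, CNOT7 and CNOT8, LSM14A and LSM14B, UPF3A and UPF3B, and LSM1 and LSM8.

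Across these 12 pairs, the order was the same under each alternative that gave a value for 7 pairs and turned for 5. The 7 were CNOT6 over CNOT6L, DCP1A over DCP1B, TNRC6A over TNRC6B, XRN2 over XRN1, AGO2 over AGO1, AGO4 over AGO3 and DROSHA over DICER1. AGO3 came closest to AGO4 with all types summed, at a ratio of 0.971. No value for DCP1B was left when only transcripts of at least 50 reads were kept.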

How the data were processed

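RNA of MDA-MB-231 cells was sequenced on an Illumina HiSeq instrument from TruSeq mRNA libraries. Per the study's methods, the authors mapped reads to GENCODE v24 transcripts with STAR at default settings, estimated reads per transcript with eXpress and compared groups with DESeq2; tool versions are not given in the sources used here. The deposited signal of each transcript is the authors' mean normalized read count over libraries. Which libraries enter that mean, including those of a lower KH-3 dose named in the methods, is not stated. No value per library was used, so depth and replicate error are unknown and no interval is given. The deposited columns with the authors' fold change, p-value and q-value for KH-3 against DMSO were not used. The table starts at 7.34 reads, so transcripts of fewer reads are not analysed here. eXpress divides reads shared by overlapping transcripts by a model, so isoform values carry an unmeasured error, and dividing by length raises short transcripts.

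Levels and shares were computed with Python 3.11.15, pandas 2.3.3 and numpy 2.4.6, figures were drawn with matplotlib 3.10.9, and the level and share functions were tested on simulated data. Positions, stop codons and junctions came from hg38 with GENCODE v44, another release, matched by transcript identifier without version: 155 of 159 member transcripts matched, 87 with the same length, and 238 of 242 transcripts of all types, with the 18 NMD transcripts all of the same length in both. Values were given for the highest and lowest gene of each class, the genes of set pairs and the subunits of set complexes, and other genes by range. Members, pairs and related genes were chosen with earlier results of these data known. Alternatives were length minus 200 bases, the leading transcript alone, all transcript types and transcripts of at least 50 reads. Coding reads over the length of the leading transcript was added after seeing the data. Names of the same pattern without a coding transcript (18 transcripts: PAN2, pseudogenes and an antisense gene) were left out. The values of 1 NMD gene and of the pair it belongs to are not reported here; the gene stays in the counts and medians.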

Additional observations from a re-analysis of the deposited data

How the results depend on the processing

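The values are pooled means, so no replicate could be left out and no error is known. No paired analysis was possible because no value per library was used. The median level of all members, 205 reads per kb, was 221 with length minus 200 bases, 172 with the leading transcript alone, 266 with all transcript types, 200.1 with transcripts of at least 50 reads and 189.5 with coding reads over the length of the leading transcript. In the same order the decapping median was 336, 208, 399.7, 247 and 246, the exosome median 429.5, 268, 434, 316 and 325, the NMD median 204, 139, 241, 182 and 189.5, and the silencing median 50.7, 33.1, 53.7, 44.2 and 40.7. The deadenylation median was 232 with the shorter length, 120.4 with the leading transcript alone and 188 with coding reads over its length. The median of all genes was 129, 82.5, 157, 155 and 108, and 43, 47, 46, 40 and 44 members were above it. The member share of reads was 0.574% with all types and 0.531% with at least 50 reads, where the median share outside coding transcripts was 0 in place of 2.43%. With the leading transcript alone, CNOT7 over CNOT8 was 0.802, LSM1 over LSM8 3.78 and LSM14A over LSM14B 0.721. With coding reads over the length of the leading transcript, CNOT7 over CNOT8 was 0.685 and LSM1 over LSM8 1.44. With all types, EDC3 over EDC4 was 0.603 and UPF3A over UPF3B 1.23. Gene levels moved by over 1.5 times for 2 genes with the shorter length, 22 with the leading transcript alone, 16 with all types, 3 with at least 50 reads and 5 with coding reads over the leading length, and LSM8 moved most in the first, the second and the last of these.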
